A study of Mus musculus with 9 samples.

Results

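Islets of Langerhans, the hormone-secreting cell clusters of the pancreas, were compared between db/db and wild-type (WT) mice over every gene that passed a low-count filter. Each genotype had 3 RNA sequencing libraries, so the comparison rests on 6 of the 9 libraries of the series. The other 3 libraries, from db/+ islets, served to estimate the spread between replicates and are given beside a result where they bear on it. All mice were 12 weeks old and all carry the same strain label, on the BKS background, on which WT means 2 normal copies of Lepr, the leptin receptor gene, and db/db means 2 copies of its mutant db allele. Lepr itself stood at 3.17, 1.72 and 1.93 CPM in WT and 9.47, 2.6 and 2.05 CPM in db/db and did not pass the test (log2 fold change of 1.0 ± 0.65 (edgeR adjusted p = 0.245)), except with Y-linked counts as a covariate, and counts per gene do not show the splicing change of the db allele, so they do not check the labels. The db allele is inherited in the germline and present in every tissue, so effects inside the islet and effects of the animal's obesity and diabetes cannot be told apart here. The labels give neither the sex of the mice nor whether a library came from a single animal or from pooled islets, and p values therefore measure the spread between these libraries only.

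Leptin is a hormone of fat tissue that limits appetite. Without its receptor, mice overeat, become obese and insulin resistant, and the islets first enlarge and secrete more insulin before beta cells fail. A beta cell makes, folds and packages proinsulin at a high rate, so its endoplasmic reticulum (ER), the compartment where secreted proteins are folded, is closely tied to its metabolism. Beta cells also carry a primary cilium, an antenna-like projection that senses signals, and they couple glucose oxidation in mitochondria to electrical activity and calcium entry. The genes below are ordered by these roles, and then by signals between cells, nuclear functions and genes outside any list.

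Islet hormone genes were abundant in every library, and summed beta cell markers, to which the insulin genes and Iapp contribute most, were 82500 to 120000 CPM in WT and 91800 to 125000 CPM in db/db. Of the 9 beta cell markers 6 were lower and 1 higher, with a median log2 fold change of -1.17. Summed alpha cell markers were 10700 to 19300 and 10000 to 11500 CPM, and of the 8 markers 6 were lower and 2 higher, with a median log2 fold change of -0.86. Other features of the libraries moved with genotype and bear on every result. Xist, which silences an X chromosome in female cells, and Y-linked genes were both present in WT 1, WT 3 and db/db 1, WT 2 had Y-linked counts with Xist at 0.722 CPM, and db/db 2 and db/db 3 had Xist with summed Y-linked counts of 1.11 and 0.108 CPM. Summed marker genes of acinar cells, which make digestive enzymes, were 5790 to 10970 CPM in WT and 15980 to 44640 CPM in db/db. Summed markers of stellate cells, fibroblasts and pericytes were 256 to 367 CPM in WT and 793 to 2090 CPM in db/db, those of duct cells 415 to 433 and 888 to 1420 CPM, of macrophages 104 to 147 and 171 to 293 CPM, and of endothelium 584 to 631 and 660 to 907 CPM. No marker of these 5 lists was at 0 in all 6 libraries, and db/db 1 had the highest acinar and stellate sums. The 3 db/+ libraries had acinar sums of 13330 to 30380 CPM, which overlapped those of db/db. The first letter of the sample title was H in all db/db libraries and in WT 3. It was G in WT 1, WT 2 and all db/+ libraries. Reads on Gm42418 and Lars2, which overlap ribosomal RNA sequence, made up 17.9% and 13.3% of the counts in db/db 1 and 2, 0.0558% in db/db 3 and 1.89% to 2.58% in WT. Neither gene passed the test with all libraries, and both were called higher without db/db 3. Without these genes, the acinar markers and the trypsinogens 3563 genes were called higher and 3504 lower. In bulk RNA, a change in the number of cells of a type and a change in RNA per cell cannot be told apart, and this holds for each gene below.

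Levels are given as CPM, which are counts scaled to the TMM-normalised library size, in the order of replicates 1 to 3, and differences as log2 fold changes of db/db against WT with their standard errors (SE). Adjusted p values are those of the edgeR quasi-likelihood F-test, adjusted by the Benjamini-Hochberg method over the 16826 genes, and a gene is called higher or lower where that value was under 0.05. By this measure 41.7% of all tested genes were called, 21.8% higher and 19.9% lower, and in 51.5% the 3 db/db and the 3 WT libraries did not overlap. The median log2 fold change of all tested genes was 0.01. With library totals in place of TMM factors that median was -0.22 and 29.0% of calls were higher, against 52.3% with TMM, so small shared rises or falls depend on the scaling. Library totals include the reads on ribosomal RNA given above, which take their largest shares in db/db 1 and 2. The 52 gene lists held 2415 tested genes and were chosen with earlier results of these data known. Each count of members below is to be read against these shares of all genes. Lists of genes with low levels lost members to the filter, such as the chemokine and complement list with 47 tested of 86 genes, the FGF list with 35 of 56, the motile cilium list with 48 of 76 and the WNT list with 34 of 65. A member that passed through high counts in a single genotype had to differ, so the counts and medians of these lists are descriptions only.

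**Figure D1:**
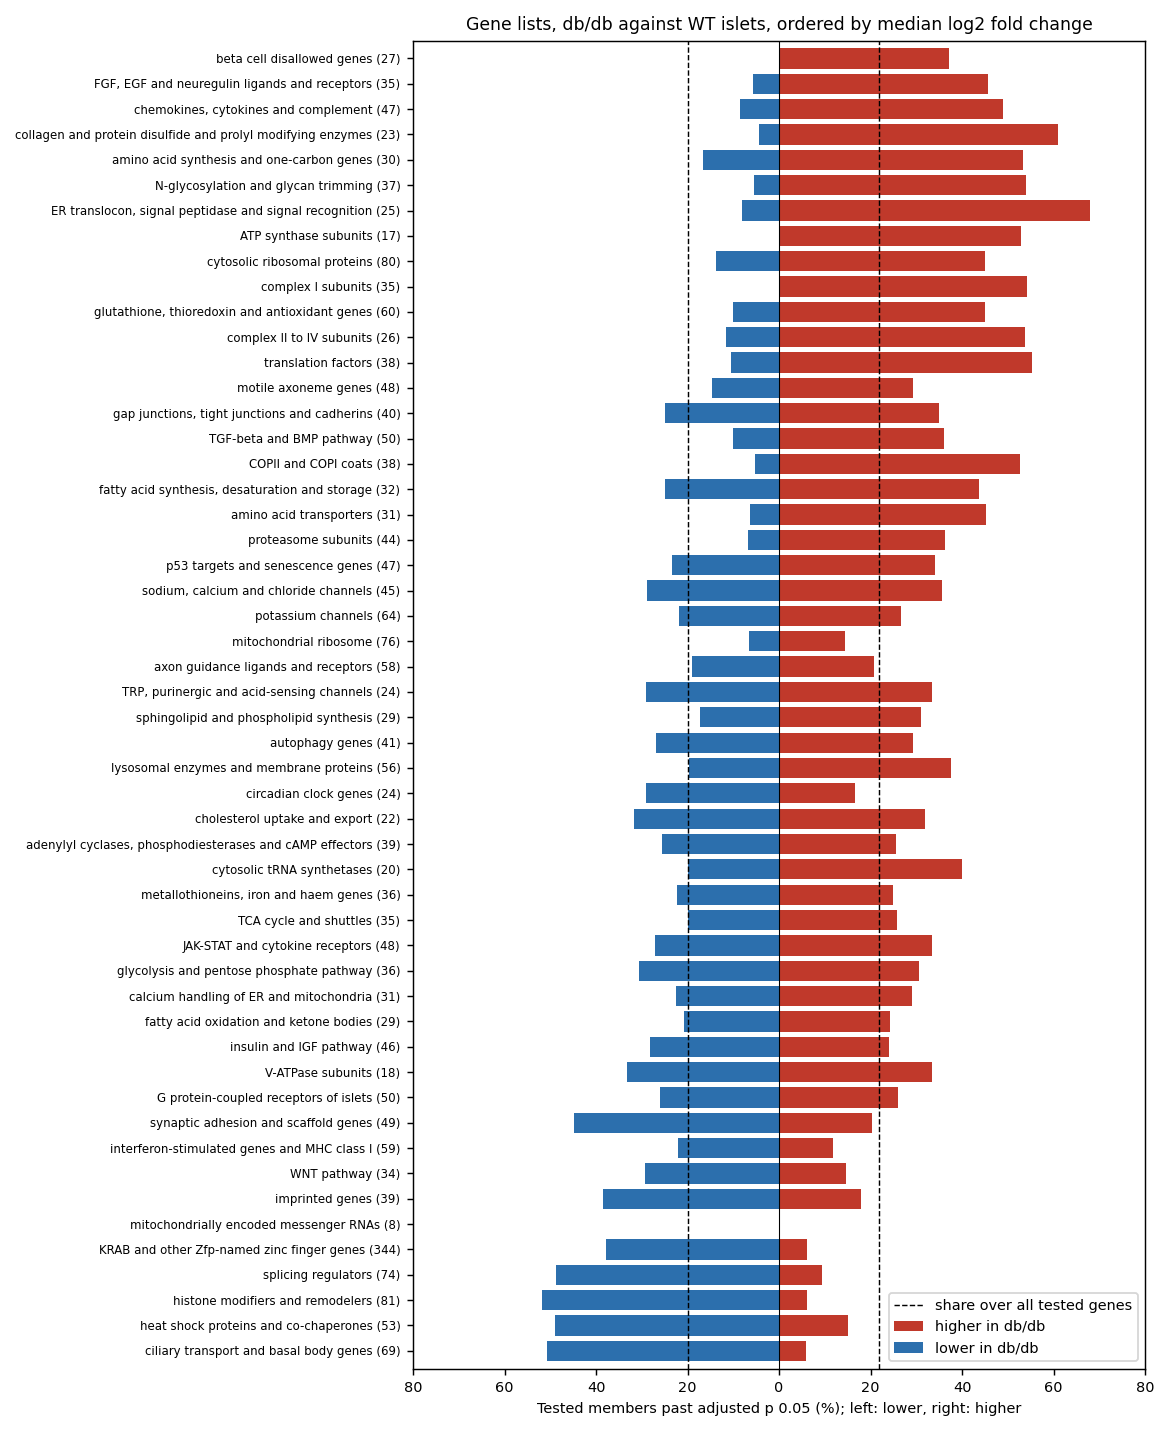
Share of tested members called higher (right) and lower (left) in db/db against WT islets for 52 gene lists, ordered by the median log2 fold change of the members, with the number of tested members in brackets and dashed lines at the shares over all tested genes (21.8% and 19.9%). The lists of nuclear respiratory complexes, cytosolic ribosomal proteins and the secretory path reach past the dashed line for higher genes, and ciliary, splicing, heat shock, chromatin and zinc finger lists reach past the line for lower genes.

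Among nuclear genes for the respiratory chain, far more were higher than lower in db/db islets. 19 of 35 complex I subunit genes were higher and 0 lower, with a median log2 fold change of 0.36. Of the 26 genes of complexes II to IV 14 rose and 3 fell (median log2 fold change 0.31). 9 of 17 ATP synthase genes were higher and 0 lower, with a median log2 fold change of 0.38. No complex I or ATP synthase gene was lower in edgeR's test, and the same count of 0 was found at an unadjusted p under 0.05, with DESeq2 and with limma-voom. Mitochondrially encoded messenger RNAs code for core subunits of the same complexes, and only 8 of 13 passed the low-count filter. These 8 gave 0 calls in either direction (median log2 fold change -0.24), with 1 lower at an unadjusted p under 0.05. With DESeq2 and with limma-voom 1 was lower. The list is thus incomplete and does not show how mitochondrial transcripts as a whole compare with the nuclear genes. Ndufa1, an accessory subunit of complex I, stood at 13.8, 21.6 and 23 CPM in WT and 80.7, 66.6 and 89.8 CPM in db/db, a log2 fold change of 2.03 ± 0.18 (edgeR adjusted p = 1.21e-05). Ndufc2, another accessory subunit, stood at 29.2, 37.2 and 42.4 CPM in WT and 83.8, 72.6 and 94.7 CPM in db/db, a log2 fold change of 1.21 ± 0.13 (edgeR adjusted p = 1.96e-05). Uqcrh, the hinge protein of complex III, stood at 37.7, 40.5 and 40.3 CPM in WT and 71.8, 69.4 and 81.1 CPM in db/db, a log2 fold change of 0.91 ± 0.09 (edgeR adjusted p = 4.93e-06). For all 3 genes every db/db library lay above every WT library. Cox6a2, the heart and muscle isoform of a complex IV subunit, went the other way, from 96.1 ± 12.5 to 2.86 ± 1.87 CPM, while its ubiquitous counterpart Cox6a1 rose from 58 ± 7.47 to 88.5 ± 6.04 CPM. The rise of complex I genes was smaller under several alternatives: 6 higher and 3 lower with library totals, 7 higher and 0 lower with Y-linked counts as a covariate, 10 higher and 0 lower with acinar markers as a covariate and 13 higher and 1 lower after correction for transcript length. With WT 1 or db/db 3 left out, 12 complex I genes were higher in each case, and without WT 1 9 of complexes II to IV. These messenger RNAs are short, and over all genes the median log2 fold change fell from 0.11 to -0.07 between the shortest and the longest of 5 equal classes of transcript length.

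Enzymes that feed the chain changed in both directions, and Pcx, Gpd2 and Pfkfb2 fell while Gpd1, Pfkfb3 and Pdk1 rose. Of the 35 genes of the TCA cycle and the NADH shuttles 9 rose and 7 fell (median log2 fold change 0.03). Their share of called genes, 45.7%, lay near the 41.7% of all tested genes. With library totals 3 were higher and 14 lower, and the lower count was 4 without WT 2 and also without db/db 1. Pcx, which encodes the pyruvate carboxylase that refills the cycle with oxaloacetate, stood at 175, 213 and 207 CPM in WT and 41.6, 55.2 and 50.8 CPM in db/db, a log2 fold change of -2.01 ± 0.12 (edgeR adjusted p = 1.23e-07). Gpd2, the mitochondrial enzyme of the glycerol phosphate shuttle, fell from 113.9 ± 14.4 to 43.2 ± 1.86 CPM, whereas its cytosolic partner Gpd1 rose from 21.2 ± 2.51 to 42.1 ± 1.48 CPM. Mdh1, the cytosolic malate dehydrogenase of the other NADH shuttle, rose from 200.1 ± 24.2 to 322 ± 22 CPM. 11 of 36 genes of glycolysis and the pentose phosphate pathway were higher and 11 lower, with a median log2 fold change of -0.01. Pfkfb2 and Pfkfb3 encode enzymes that set the level of fructose 2,6-bisphosphate, the activator of glycolysis. Pfkfb2 stood at 194, 170.4 and 176 CPM in WT and 64.9, 81.9 and 76.1 CPM in db/db, a log2 fold change of -1.28 ± 0.09 (edgeR adjusted p = 1.98e-07). Pfkfb3 stood at 8.73, 10.5 and 9.04 CPM in WT and 27, 28 and 20.7 CPM in db/db, a log2 fold change of 1.42 ± 0.16 (edgeR adjusted p = 9.68e-06). The isoforms thus moved in opposite directions, with no overlap of the groups for either. Pdk1, a kinase that switches off pyruvate dehydrogenase, rose from 32.1 ± 3.64 to 74.5 ± 3.3 CPM, and Ldhb, a lactate dehydrogenase subunit, fell from 12.6 ± 0.691 to 3.86 ± 0.305 CPM.

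Lipid genes changed in both directions: Srebf1, Scd2, Fasn, Stard4 and Hadh fell, and Lpin2, Mgll and Scarb1 rose. 14 of 32 genes of fatty acid synthesis, desaturation and storage were higher and 8 lower, with a median log2 fold change of 0.23. Srebf1, the transcription factor that drives fatty acid synthesis genes, stood at 181, 179 and 181 CPM in WT and 73.8, 75.4 and 80.2 CPM in db/db, a log2 fold change of -1.24 ± 0.08 (edgeR adjusted p = 4.84e-08). Scd2, a desaturase that makes monounsaturated fatty acids, stood at 421, 381 and 330.2 CPM in WT and 133, 113.1 and 110.2 CPM in db/db, a log2 fold change of -1.67 ± 0.13 (edgeR adjusted p = 1.09e-06). Fasn, the fatty acid synthase, fell from 279 ± 3.04 to 167 ± 7.76 CPM. For each of these 3 genes every db/db library lay below every WT library. Lpin2, a phosphatidate phosphatase on the way to triglyceride, rose from 41 ± 3.94 to 110.4 ± 6.75 CPM, and Mgll, the monoglyceride lipase, from 14.2 ± 0.517 to 27 ± 6.57 CPM, the latter not called with acinar markers as a covariate. Of the 22 genes of cholesterol uptake and export 7 rose and 7 fell (median log2 fold change 0.08). Stard4, a carrier of cholesterol between membranes, stood at 31.2, 26.2 and 28 CPM in WT and 10.02, 10.03 and 9.38 CPM in db/db, a log2 fold change of -1.54 ± 0.13 (edgeR adjusted p = 7.17e-07), while Scarb1, the HDL receptor, rose from 17.1 ± 3.73 to 33.4 ± 2.13 CPM. Of the 29 genes of fatty acid oxidation and ketone bodies 7 rose and 6 fell (median log2 fold change -0.05). Their share of called genes, 44.8%, lay near the 41.7% of all tested genes. The higher count was 3 without db/db 1 and 4 without WT 2, WT 3 or db/db 2 in turn. Hadh, the mitochondrial hydroxyacyl-CoA dehydrogenase known in beta cells as a brake on insulin secretion, stood at 604, 693 and 655 CPM in WT and 215.7, 251 and 196 CPM in db/db, a log2 fold change of -1.56 ± 0.10 (edgeR adjusted p = 6.81e-08). Its lowest WT library was above its highest db/db library. Among sphingolipid genes, Sgpl1, which degrades sphingosine 1-phosphate, fell from 177 ± 16.1 to 96 ± 4.45 CPM. With acinar markers as a covariate 3 higher and 7 lower of the fatty acid synthesis and storage genes were called, and the part of acinar RNA in the rises was not tested.

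Ribosomal protein and translation factor genes had more risen than fallen members. Of the 80 cytosolic ribosomal protein genes 36 rose and 11 fell (median log2 fold change 0.37). Rplp0, a protein of the ribosomal stalk, stood at 137, 139 and 142.1 CPM in WT and 313, 305 and 309 CPM in db/db, a log2 fold change of 1.15 ± 0.08 (edgeR adjusted p = 1.13e-07). Rps3, a small subunit protein, rose from 179 ± 5.31 to 335 ± 3.32 CPM, and Rpl4, a large subunit protein, from 352 ± 11.1 to 659.6 ± 11 CPM. Rpl3 fell from 18.8 ± 2.27 to 8.23 ± 1.67 CPM and Rpl10 from 37 ± 3.25 to 21.7 ± 1.68 CPM, and these levels are low for ribosomal proteins. Without WT 1 the count of lower ribosomal protein genes was 7. Many ribosomal protein genes have processed copies in the genome that can share reads, so the counts of single members are uncertain. 21 of 38 translation factor genes were higher and 4 lower, with a median log2 fold change of 0.29, and 2 were lower without WT 2, db/db 1 or db/db 3 in turn. Among the 7 elongation factor genes 6 rose. Eef1a1, which delivers aminoacyl-tRNA to the ribosome, stood at 584, 580.3 and 561 CPM in WT and 1104, 1007 and 1061 CPM in db/db, a log2 fold change of 0.88 ± 0.08 (edgeR adjusted p = 1.51e-06). Eef1b2, its exchange factor, stood at 77.1, 81.7 and 86.3 CPM in WT and 173, 173 and 189 CPM in db/db, a log2 fold change of 1.13 ± 0.09 (edgeR adjusted p = 4.03e-07). The db/db libraries were above the WT libraries throughout for both. Of the initiation factors 15 of 30 rose and 4 fell, among the latter Eif4a1, the RNA helicase of the cap-binding complex, from 53.5 ± 5.77 to 34.6 ± 0.912 CPM. Of the 76 tested genes of the mitochondrial ribosome 11 were higher and 5 lower (median log2 fold change 0.14), and with library totals 1 higher and 12 lower were called. Its 21.1% called lay under the 41.7% of all tested genes.

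Genes that make and import amino acids also had more risen than fallen members. 16 of 30 genes of amino acid synthesis and folate metabolism were higher and 5 lower, with a median log2 fold change of 0.42, and 3 were lower without WT 1, WT 2 or db/db 1 in turn. Pycr1, which makes proline in mitochondria, stood at 16, 15.5 and 14.6 CPM in WT and 65.3, 84 and 75.9 CPM in db/db, a log2 fold change of 2.28 ± 0.10 (edgeR adjusted p = 3.68e-09). Psat1, an aminotransferase of serine synthesis, stood at 11.5, 12.7 and 9.85 CPM in WT and 41.2, 45.5 and 43.4 CPM in db/db, a log2 fold change of 1.93 ± 0.11 (edgeR adjusted p = 3.21e-08). Aldh1l2, a mitochondrial enzyme of folate metabolism, stood at 72.1, 66.5 and 64.9 CPM in WT and 121.99, 143 and 141 CPM in db/db, a log2 fold change of 1.0 ± 0.08 (edgeR adjusted p = 8.43e-07). In each of these genes the lowest db/db library exceeded the highest WT library. Mthfd1, the cytosolic folate enzyme, fell from 137 ± 4.06 to 50.4 ± 6.43 CPM, and Glul, the glutamine synthetase, from 369 ± 8.17 to 178 ± 25.6 CPM. Of the 31 amino acid transporters 14 rose and 2 fell (median log2 fold change 0.20). Slc7a11, the cystine and glutamate exchanger, stood at 3.33, 2.62 and 3.05 CPM in WT and 30.7, 42.7 and 27.3 CPM in db/db, a log2 fold change of 3.47 ± 0.32 (edgeR adjusted p = 1.58e-05). Slc38a10 rose from 417 ± 27.8 to 743 ± 99.9 CPM, and Slc7a8, a carrier of large neutral amino acids, fell from 79.4 ± 13.4 to 38 ± 9.37 CPM. The acinar marker sums given above moved in the same direction as these lists. With the acinar covariate 13 higher and 3 lower of the synthesis genes and 9 higher and 2 lower of the transporters were called.

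The secretory pathway lists had some of the highest shares of risen genes. 17 of 25 genes for the translocon, signal peptidase and signal recognition were higher and 2 lower, with a median log2 fold change of 0.40. Of the 37 N-glycosylation and glycan trimming genes 20 rose and 2 fell (median log2 fold change 0.41). 20 of 38 genes for COPII and COPI coats and their cargo receptors were higher and 2 lower, with a median log2 fold change of 0.27. Of the 23 genes for disulfide and prolyl modifying enzymes of the ER 14 rose and 1 fell (median log2 fold change 0.68). Sec11c, the catalytic subunit of the signal peptidase that cleaves signal sequences from new secretory proteins, stood at 84.5, 104 and 105 CPM in WT and 344, 345 and 359.9 CPM in db/db, a log2 fold change of 1.83 ± 0.09 (edgeR adjusted p = 4.33e-09). Ssr4, a subunit of the translocon-associated complex, stood at 139, 174 and 178 CPM in WT and 431, 451 and 469.9 CPM in db/db, a log2 fold change of 1.46 ± 0.10 (edgeR adjusted p = 1.55e-07). Both rose in all 3 db/db libraries above all WT libraries. Among the glycosylation genes, Alg5, which makes the glucose donor of the oligosaccharide, rose from 16 ± 1.89 to 47.8 ± 2.28 CPM, and Prkcsh, the beta subunit of glucosidase II, from 112.99 ± 8.12 to 276 ± 26.5 CPM. Kdelr3, a receptor that returns escaped ER proteins from the Golgi, stood at 4.84, 6.05 and 6.81 CPM in WT and 59.97, 60.5 and 70.4 CPM in db/db, a log2 fold change of 3.44 ± 0.14 (edgeR adjusted p = 1.73e-09). Tmed3, a cargo adaptor of the p24 family, stood at 181, 217 and 220.3 CPM in WT and 684, 684 and 815 CPM in db/db, a log2 fold change of 1.82 ± 0.11 (edgeR adjusted p = 3.97e-08). Copz2, a subunit of the COPI coat, rose from 26.1 ± 1.48 to 81 ± 6.84 CPM. Of these genes Kdelr3 had the largest fold change, and no library of 1 group fell within the range of the other for any of them.

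Among folding enzymes of the ER, P4hb, Fkbp11 and Qsox1 rose and Ero1lb fell. P4hb, a protein disulfide isomerase, stood at 1159, 1317 and 1230.3 CPM in WT and 2416, 2473 and 2764 CPM in db/db, a log2 fold change of 1.05 ± 0.09 (edgeR adjusted p = 1.10e-06). Fkbp11, a prolyl isomerase of the ER, stood at 21.9, 31.2 and 33.5 CPM in WT and 122.7, 125.9 and 155 CPM in db/db, a log2 fold change of 2.23 ± 0.15 (edgeR adjusted p = 5.78e-07). Qsox1, a sulfhydryl oxidase, rose from 87.7 ± 6.67 to 222 ± 8.17 CPM. In contrast Ero1lb, the pancreas-enriched oxidase that recharges disulfide isomerases and acts in proinsulin folding, stood at 2006, 2521 and 2597 CPM in WT and 733, 937 and 871.3 CPM in db/db, a log2 fold change of -1.49 ± 0.12 (edgeR adjusted p = 5.18e-07). It was the single fallen member of its list, and its highest db/db library lay far below its lowest WT library. The db/+ libraries were at -0.29 to -0.12 in the median level of the translocon list, against -0.36 to -0.03 in WT and 0.28 to 0.42 in db/db (log2 units around the mean of 9 libraries). For the glycosylation list the same levels were -0.20 to -0.13 in db/+, -0.23 to -0.08 in WT and 0.22 to 0.30 in db/db. With acinar markers as a covariate 10 higher and 0 lower of the translocon genes, 15 higher and 0 lower of the glycosylation genes and 18 higher and 0 lower of the coat genes were called. With library totals these counts were 9 higher and 2 lower, 12 higher and 2 lower and 9 higher and 6 lower. The part of acinar RNA in the rises of these lists was not tested.

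**Figure D2:**
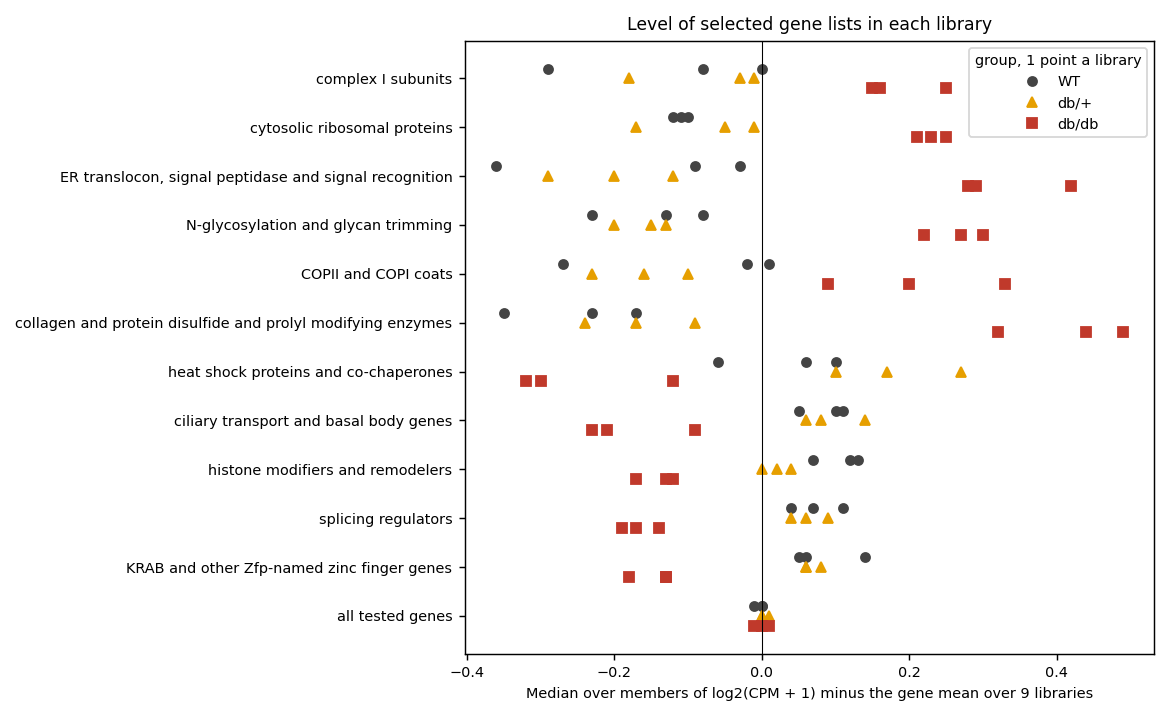
Level of 11 gene lists and of all tested genes in each of the 9 libraries, as the median over members of log2(CPM + 1) minus each gene's mean over the 9 libraries, with 1 point a library (circles WT, triangles db/+, squares db/db). In the 6 lists at the top every db/db point lies right of every WT point, in the 5 lists below every db/db point lies left of every WT point, and all tested genes stay between -0.01 and 0.01.

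Promoters of these genes were searched for short sequences bound by stress and ciliary transcription factors, on both strands, from 250 bases before to 50 bases after the RefSeq start (assembly GRCm38.p6). In all 17 patterns were searched in the lists and in 27025 symbols, and those described were picked after their counts were seen. CCGGAAGT, another of the patterns, was in 6 of 34 COP coat promoters (17.6%) and in 4.31% of all symbols. TGACGTGG, the core of the unfolded protein response element, was in 8 of 34 COP coat promoters (23.5%) and in 0.714% of all symbols. In the other secretory lists this core was in 0 of 18 translocon, 0 of 31 glycosylation and 1 of 20 disulfide and prolyl enzyme promoters. The windows that lie wholly before the start site are shown because they place this core in a coat gene that rose more than 10-fold and in others that changed little. Capitals mark the core or its reverse complement, and each line gives the transcribed strand.

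Copb1, chr7:114254681-114254738, strand -: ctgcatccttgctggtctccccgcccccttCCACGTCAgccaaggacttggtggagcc
Gbf1, chr19:46152516-46152557, strand +: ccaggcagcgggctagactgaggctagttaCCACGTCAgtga
Kdelr3, chr15:79516348-79516407, strand +: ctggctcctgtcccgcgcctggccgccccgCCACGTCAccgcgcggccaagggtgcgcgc
Sec16b, chr1:157506722-157506789, strand +: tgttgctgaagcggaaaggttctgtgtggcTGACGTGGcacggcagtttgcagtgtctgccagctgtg
Sec24d, chr3:123267440-123267495, strand +: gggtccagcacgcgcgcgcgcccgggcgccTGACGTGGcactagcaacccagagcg

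Kdelr3 and Copb1, a COPI coat subunit that stood at 305, 337 and 334 CPM in WT and 384, 433 and 459.8 CPM in db/db (log2 fold change of 0.39 ± 0.08 (edgeR adjusted p = 0.00218)), rose. The other 3 genes shown did not pass the test. Apart from Kdelr3, the genes of these promoters were chosen after their values were seen, as were Rfx3, Bbs7, Mks1 and Ttc26 below. Gbf1, the exchange factor that recruits the COPI coat, had a log2 fold change of -0.21 ± 0.10 (edgeR adjusted p = 0.108), and was called lower without WT 1, at edgeR adjusted p = 0.036, and with library totals. Copb1 was not called with library totals or with the Y-linked or title letter covariate. The COPII genes Sec24d (log2 fold change of 0.13 ± 0.14 (edgeR adjusted p = 0.504)) and Sec16b (log2 fold change of 0.02 ± 0.08 (edgeR adjusted p = 0.837)) did not pass it either. A match is a description of the letters and not evidence of binding, and of the 8 promoters with a match 3 belonged to risen genes.

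Genes for degradation were less uniform. 16 of 44 proteasome genes were higher and 3 lower, with a median log2 fold change of 0.19, and with library totals 2 higher and 6 lower, so the split of proteasome calls differs between the scalings. Called genes were 43.2% of this list, near the 41.7% of all tested genes. With WT 1 or db/db 3 left out, 9 and 10 proteasome genes were higher. Psmc1, an ATPase of the regulatory particle, rose from 33.9 ± 1.69 to 50.4 ± 2.6 CPM, and Psmb9, the interferon-inducible catalytic subunit, fell from 5.34 ± 0.556 to 2.31 ± 0.631 CPM. Psmb9 was not called with the Y-linked or with the acinar covariate. Of the 56 genes of lysosomal enzymes and membrane proteins 21 rose and 11 fell (median log2 fold change 0.09), or 15 higher and 17 lower with library totals. Ctsl, the protease cathepsin L, stood at 145, 145 and 118 CPM in WT and 292, 233 and 260.1 CPM in db/db, a log2 fold change of 0.95 ± 0.10 (edgeR adjusted p = 6.47e-06). Laptm4a, a lysosomal membrane protein, rose from 208 ± 14 to 349.6 ± 19 CPM, while Tpp1, a peptidase, fell from 44.6 ± 3.61 to 26.1 ± 2.8 CPM and Lamp2, an abundant lysosomal membrane protein, from 258 ± 6.72 to 183 ± 3.56 CPM. Of the 41 autophagy genes 12 rose and 11 fell (median log2 fold change 0.10), and the lower count was 3, 6 and 5 without WT 1, WT 2 or db/db 3. Vmp1, an ER protein needed for autophagosome formation, rose from 43.4 ± 5.19 to 82.5 ± 10.8 CPM, and Uvrag, a partner of the lipid kinase complex of autophagy, fell from 73.4 ± 4.29 to 50.8 ± 2.71 CPM.

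Genes of the primary cilium had many more fallen than risen members. Of the 69 ciliary transport and basal body genes 4 rose and 35 fell (median log2 fold change -0.28). In 37 of the 69 the db/db libraries lay wholly below the WT libraries, and in 4 wholly above. Among all tested genes 51.5% did not overlap, counting both directions. The falls were spread over the parts of the cilium. Of the intraflagellar transport genes, which carry cargo along the cilium, 11 of 21 fell and 2 rose. Of the motor genes 5 of 8 fell, of the BBSome genes, which sort membrane proteins out of the cilium, 8 of 11 fell, and of the genes for the transition zone and basal body 10 of 21 fell and 2 rose. Rfx3, a transcription factor that drives ciliary genes, stood at 86.5, 74 and 110.0 CPM in WT and 98.8, 105 and 101.2 CPM in db/db and did not pass the test (log2 fold change of 0.17 ± 0.12 (edgeR adjusted p = 0.253)), though it was called higher without WT 3, at edgeR adjusted p = 0.0123. Bbs1, a BBSome subunit, stood at 38.3, 32.6 and 34.9 CPM in WT and 13.4, 19 and 13.5 CPM in db/db, a log2 fold change of -1.21 ± 0.13 (edgeR adjusted p = 6.84e-06). Ift80, a transport particle subunit, stood at 79.1, 90.03 and 95.4 CPM in WT and 55.6, 52.6 and 53.9 CPM in db/db, a log2 fold change of -0.71 ± 0.08 (edgeR adjusted p = 1.51e-05). Ttc21b, a subunit of the retrograde particle, stood at 29.9, 29 and 27.6 CPM in WT and 16.1, 17 and 16.7 CPM in db/db, a log2 fold change of -0.80 ± 0.10 (edgeR adjusted p = 2.77e-05). The replicates of each group lay close together in all 3 genes and the groups were far apart. Of the 4 members that rose, Cc2d2a, a transition zone gene, stood at 42.1, 35.9 and 35.2 CPM in WT and 84.9, 79.8 and 83.8 CPM in db/db, a log2 fold change of 1.13 ± 0.10 (edgeR adjusted p = 1.66e-06). Ift46 rose from 26.7 ± 2.0 to 39.4 ± 2.62 CPM and Ift20, not called with the Y-linked covariate, from 58.9 ± 11.4 to 95.9 ± 11.1 CPM.

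The count of lower ciliary genes was 19 with Y-linked counts as a covariate and 9 with acinar markers as a covariate. With the first letter of the sample title as a covariate the count was 15. It was 46 with library totals, 37 after correction for transcript length and 22 to 34 when single libraries were left out. With db/db 1 left out it was 22. The median level of the list was -0.23, -0.09 and -0.21 in db/db 1 to 3, 0.05 to 0.11 in WT and 0.06 to 0.14 in db/+. Acinar marker sums were higher in db/db than in WT. Those of db/+, at 13330 to 30380 CPM, overlapped those of db/db, at 15980 to 44640 CPM. The part of acinar RNA in the ciliary falls was not tested.

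The X-box, the inverted repeat recognised by RFX factors, was found in 5 of 62 ciliary promoters (8.06%) and in 0.355% of all symbols. It was also in 3 of 60 motile axoneme promoters (5.0%) and in 2 of 44 heat shock and co-chaperone promoters (4.55%). Its left part alone was in 2 of 62 ciliary promoters (3.23%) and in 0.633% of all symbols. The other full-length forms searched were in 0 of 62 ciliary promoters. Among these forms, 1 was in 3 of 60 motile axoneme promoters (5.0%) and in 0.104% of all symbols. For the ciliary list, the 3 windows before the start site are shown with the match in capitals. They hold the same element in 2 genes that fell and in 1 that was not called.

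Bbs7, chr3:36613467-36613540, strand -: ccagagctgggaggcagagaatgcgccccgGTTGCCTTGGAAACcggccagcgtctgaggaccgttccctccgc
Mks1, chr11:87853161-87853214, strand +: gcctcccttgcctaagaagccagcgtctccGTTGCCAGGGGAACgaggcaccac
Ttc26, chr6:38381461-38381523, strand +: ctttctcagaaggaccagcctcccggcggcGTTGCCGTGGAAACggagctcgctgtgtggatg

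Bbs7, a BBSome subunit, stood at 24, 25.7 and 24.8 CPM in WT and 16.9, 19.9 and 17 CPM in db/db (log2 fold change of -0.47 ± 0.11 (edgeR adjusted p = 0.00295)). Mks1, a transition zone gene, stood at 19, 16.3 and 16.7 CPM in WT and 9.88, 12.5 and 14.1 CPM in db/db (log2 fold change of -0.50 ± 0.14 (edgeR adjusted p = 0.00964)). Both were lower in every db/db library, whereas Ttc26, which encodes a transport particle subunit, stood at 39.2, 40.3 and 38 CPM in WT and 36.8, 47.6 and 51.2 CPM in db/db and did not pass the test (log2 fold change of 0.21 ± 0.11 (edgeR adjusted p = 0.14)). Without db/db 1 Ttc26 was called higher, at edgeR adjusted p = 0.0116, and with acinar markers as a covariate neither Bbs7 nor Mks1 was called. Among the ciliary promoters with an X-box 3 of 5 belonged to fallen genes.

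Genes of motile cilia, which beat, had more risen than fallen members. 14 of 48 motile axoneme genes were higher and 7 lower, with a median log2 fold change of 0.28, and this list holds genes that islets express at low levels. Its share of called genes, 43.8%, lay near the 41.7% of all tested genes. Of the 12 axonemal dynein heavy chain genes, which code for the motors that bend a motile cilium, 6 passed the low-count filter and 4 of those rose. Dnah9 stood at 25.7, 18.5 and 22.6 CPM in WT and 134, 167 and 145 CPM in db/db, a log2 fold change of 2.73 ± 0.12 (edgeR adjusted p = 3.21e-09). Dnah11 stood at 5.4, 2.53 and 4.27 CPM in WT and 31.4, 23.7 and 31.6 CPM in db/db, a log2 fold change of 2.82 ± 0.21 (edgeR adjusted p = 4.72e-07). Dnah10 stood at 0.397, 0.542 and 0.406 CPM in WT and 6.59, 7.18 and 10.7 CPM in db/db, and its WT values are close to 3 counts a library, so no fold is given. All 3 genes were higher in every db/db library. Mns1, a protein of the axoneme interior, stood at 49.6, 53.6 and 40.9 CPM in WT and 18.3, 26.4 and 22.5 CPM in db/db, a log2 fold change of -1.1 ± 0.13 (edgeR adjusted p = 2.03e-05). Wdr78, a dynein intermediate chain, stood at 12.1, 14.7 and 15.6 CPM in WT and 5.49, 5.2 and 5.06 CPM in db/db, a log2 fold change of -1.43 ± 0.15 (edgeR adjusted p = 6.33e-06). These 2 genes had lower values in each db/db library than in any WT library.

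**Figure D3:**
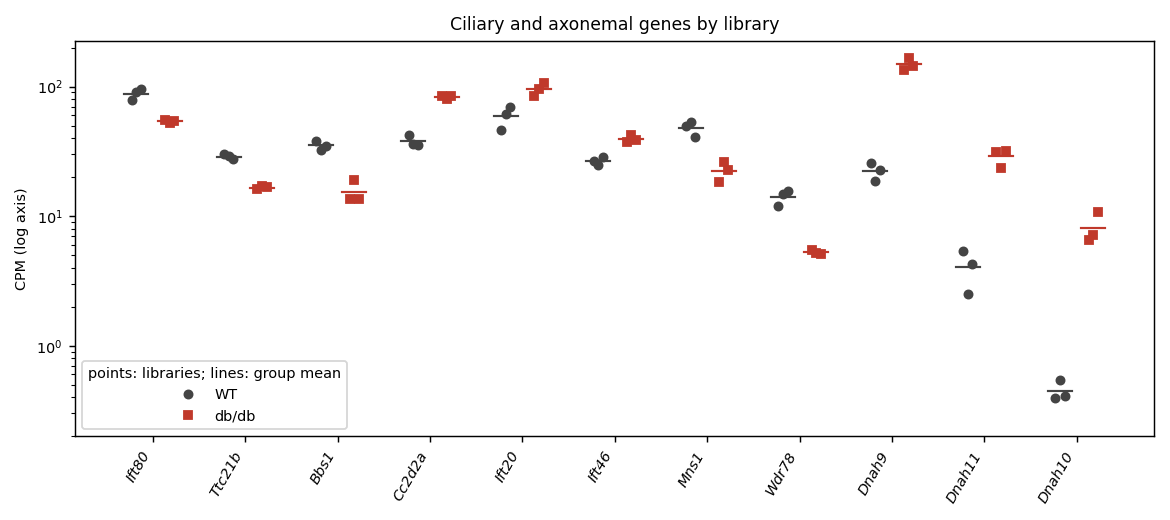
CPM on a log axis of 11 ciliary and axonemal genes in the 3 WT (circles) and 3 db/db (squares) libraries, with a line at each group mean. Ift80, Ttc21b, Bbs1, Mns1 and Wdr78 lie lower in db/db, Cc2d2a, Ift20 and Ift46 higher, and Dnah9, Dnah11 and Dnah10 show the widest gaps between the groups.

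Lists of genes for the control of transcription and splicing had more fallen than risen members. Of the 344 tested zinc finger genes named Zfp 21 rose and 130 fell (median log2 fold change -0.26). Calls in either direction made up 43.9% of this list, near the 41.7% of all tested genes, where 21.8% were higher and 19.9% lower. In 163 of these genes the db/db libraries lay wholly below WT, and in 26 wholly above. Over all tested genes 51.5% did not overlap, a share that holds both directions. The falls were small, and Zfp871 was among the clearest with 145, 136 and 167 CPM in WT and 76.4, 89.8 and 80.7 CPM in db/db, a log2 fold change of -0.86 ± 0.09 (edgeR adjusted p = 4.81e-06). Zfp398 stood at 112, 115.7 and 117 CPM in WT and 63.1, 65.2 and 62.4 CPM in db/db, a log2 fold change of -0.85 ± 0.08 (edgeR adjusted p = 1.65e-06). Without WT 3 the count of higher zinc finger genes was 13. Zfp365 and Zfp979 were among the exceptions, with rises from 6.63 ± 0.831 to 16.5 ± 3.64 CPM and from 5.86 ± 0.572 to 15.9 ± 1.27 CPM. Of the 81 genes of histone modifiers and chromatin remodelers 5 rose and 42 fell (median log2 fold change -0.27). Calls of lower genes were spread over the methyltransferases (6 of 9), HDAC deacetylases (6 of 11), Polycomb genes (7 of 14), KDM demethylases (6 of 15) and the DNMT and TET genes of DNA methylation (5 of 6). Chd3, a subunit of the NuRD remodeler, stood at 218, 217 and 207 CPM in WT and 106, 116.4 and 125.9 CPM in db/db, a log2 fold change of -0.88 ± 0.08 (edgeR adjusted p = 1.91e-06). Tet1, which oxidises methylated cytosine, fell from 41.4 ± 5.21 to 21.7 ± 1.62 CPM, and Kdm4b, a histone demethylase, from 75.1 ± 4.0 to 45.3 ± 1.2 CPM. Setd7, a lysine methyltransferase known in beta cells, rose from 95.8 ± 8.57 to 135 ± 3.45 CPM, and Sirt2, a deacetylase, from 49.1 ± 3.52 to 66.1 ± 2.17 CPM. With library totals neither Setd7 nor Sirt2 was called, and with the acinar covariate Sirt2 was not called.

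7 of 74 genes of splicing regulators were higher and 36 lower, with a median log2 fold change of -0.27. Of the hnRNP genes 12 of 19 fell and of the SR genes 6 of 11. Srsf3, an SR protein, stood at 146.2, 133 and 141.9 CPM in WT and 82.5, 93.4 and 94.8 CPM in db/db, a log2 fold change of -0.64 ± 0.07 (edgeR adjusted p = 1.66e-05). Rbm4b stood at 62.4, 45 and 50.1 CPM in WT and 25.7, 27.9 and 28 CPM in db/db, a log2 fold change of -0.95 ± 0.11 (edgeR adjusted p = 1.72e-05). Elavl4, a neuronal RNA-binding protein that islets also express, stood at 49, 55.5 and 54.8 CPM in WT and 29, 34.1 and 30.5 CPM in db/db, a log2 fold change of -0.77 ± 0.10 (edgeR adjusted p = 3.40e-05). The groups did not overlap for any of these 3. Celf4 rose from 35.4 ± 1.36 to 60.9 ± 1.15 CPM and Mbnl2 from 249 ± 11.2 to 332 ± 15.1 CPM, the latter not called with library totals. The falls in zinc finger, chromatin and splicing lists were fewer with acinar markers as a covariate, at 51, 18 and 17 genes. With Y-linked counts as a covariate the zinc finger and splicing counts were 54 and 23, and the chromatin count 26. With the title letter as a covariate 58 zinc finger genes were lower.

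**Figure D4:**
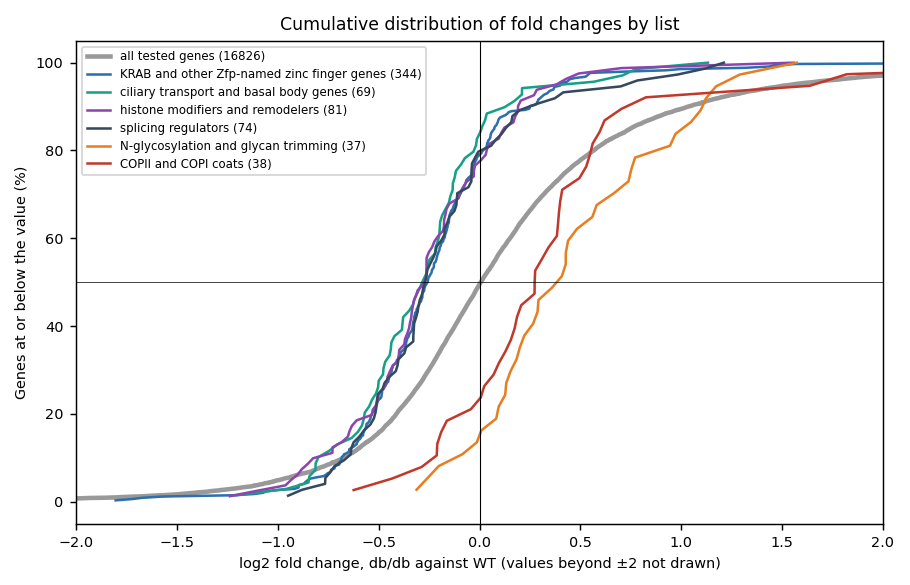
Cumulative distribution of log2 fold changes of db/db against WT for 6 gene lists and for all 16826 tested genes (thick grey line), with values beyond 2 in size not drawn. The ciliary, zinc finger, chromatin and splicing lists run together left of all genes, with medians of -0.28, -0.26, -0.27 and -0.27, while the coat and glycosylation lists run to the right with medians of 0.27 and 0.41.

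Heat shock protein genes, which code for chaperones outside the secretory path, had more fallen than risen members. Of the 53 genes of heat shock proteins and co-chaperones 8 rose and 26 fell (median log2 fold change -0.27). Of the genes for HSP90 and HSP70 chaperones 9 of 15 fell. Hspa12a, a distant HSP70 relative, stood at 76.2, 73.2 and 63.6 CPM in WT and 9.88, 18.7 and 12.9 CPM in db/db, a log2 fold change of -2.35 ± 0.17 (edgeR adjusted p = 1.00e-06). Dnajb2, a co-chaperone, stood at 74, 85.9 and 72.8 CPM in WT and 35.8, 43.7 and 40.1 CPM in db/db, a log2 fold change of -0.96 ± 0.10 (edgeR adjusted p = 5.67e-06). Bag2, which regulates HSP70, fell from 34.9 ± 3.91 to 18.1 ± 3.87 CPM. The db/db libraries were the 3 lowest for each of these genes. Bag1, another HSP70 regulator, rose from 55.2 ± 3.36 to 76.6 ± 4.13 CPM, though not with library totals. Y-linked or acinar covariates left 15 and 14 lower chaperone genes.

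Metal and redox genes showed a mixed pattern. 27 of 60 glutathione, thioredoxin and antioxidant genes were higher and 6 lower, with a median log2 fold change of 0.34. Of the glutathione transferase genes 10 of 17 rose. Txnip, an inhibitor of thioredoxin that glucose induces in beta cells, stood at 533, 573 and 585 CPM in WT and 1394, 1458 and 1382 CPM in db/db, a log2 fold change of 1.32 ± 0.09 (edgeR adjusted p = 1.68e-07). Gstm5, a glutathione transferase, rose from 10.6 ± 1.69 to 34.4 ± 4.82 CPM. Nqo1, a quinone reductase, stood at 9.6, 12 and 8.33 CPM in WT and 2.47, 2.73 and 2.48 CPM in db/db, a log2 fold change of -1.96 ± 0.20 (edgeR adjusted p = 4.81e-06). Txnip was above the WT range and Nqo1 below it in all 3 db/db libraries. 9 of 36 metallothioneins, iron and haem genes were higher and 8 lower, with a median log2 fold change of 0.06. In this list 47.2% were called, near the 41.7% of all tested genes. Tfrc, the transferrin receptor, stood at 167, 178 and 169 CPM in WT and 47.8, 58.7 and 52.8 CPM in db/db, a log2 fold change of -1.69 ± 0.08 (edgeR adjusted p = 6.04e-09). The metallothioneins, which bind zinc and copper, fell for Mt1 from 228 ± 17.7 to 95.8 ± 4.71 CPM and for Mt2 from 71 ± 9.56 to 21.6 ± 2.46 CPM, while the less abundant Mt3 rose from 0.614 ± 0.262 to 6.99 ± 1.72 CPM.

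Clock, p53 and imprinted genes gave smaller sets. Of 24 clock genes 7 fell and 4 rose, and the 45.8% called lay near the 41.7% of all tested genes. Their median log2 fold change was 0.09, and the median level of the list was -0.33, 0.11 and 0.0 in db/db 1 to 3. Per3, a repressor of the clock, stood at 56.1, 40.5 and 39.6 CPM in WT and 17.4, 23 and 16.2 CPM in db/db, a log2 fold change of -1.27 ± 0.15 (edgeR adjusted p = 3.48e-05). Dbp, a clock output factor, fell from 25.8 ± 3.37 to 12.8 ± 1.03 CPM, and Bhlhe40, not called with the acinar covariate, rose from 29.9 ± 3.68 to 61.4 ± 15.1 CPM. The labels do not give the hour at which islets were taken. 16 of 47 p53 target and senescence genes were higher and 11 lower, with a median log2 fold change of 0.19. Ccng1, a cyclin that p53 induces, rose from 120.2 ± 3.47 to 214.8 ± 8.14 CPM, Plk2, a kinase, rose from 73.2 ± 8.35 to 152 ± 4.82 CPM, and Gadd45b, a stress gene, fell from 46.1 ± 5.03 to 15.5 ± 2.53 CPM. Of the 39 imprinted genes 7 rose and 15 fell (median log2 fold change -0.18). Rasgrf1, an exchange factor for Ras, stood at 216.1, 228 and 215.99 CPM in WT and 108.8, 128 and 152 CPM in db/db, a log2 fold change of -0.76 ± 0.10 (edgeR adjusted p = 3.80e-05). Peg13, a non-coding RNA, fell from 175 ± 18.3 to 85.2 ± 4.45 CPM, while H13, a signal peptide peptidase, rose from 241 ± 46.7 to 487 ± 36.3 CPM.

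Membrane excitability genes changed in both directions with some large differences. 17 of 64 potassium channel genes were higher and 14 lower, with a median log2 fold change of 0.15. Of the tandem-pore-domain genes, which set resting potential, 6 of 9 rose and 2 fell. Kcnk1, a member of that family, stood at 17.9, 21 and 21.4 CPM in WT and 87.7, 76.4 and 80.6 CPM in db/db, a log2 fold change of 2.02 ± 0.11 (edgeR adjusted p = 9.75e-09). Kcnh5, a voltage-gated channel, stood at 14.8, 13.2 and 13.4 CPM in WT and 1.65, 3.1 and 3.99 CPM in db/db, a log2 fold change of -2.21 ± 0.22 (edgeR adjusted p = 3.24e-06). Kcns3, a modulatory subunit, was at or under the 3-count floor in WT and at 7.82, 4.71 and 5.5 CPM in db/db. Of the 45 sodium, calcium and chloride channel genes 16 rose and 13 fell (median log2 fold change 0.18). Scn3a, a sodium channel of beta and alpha cells, stood at 35.6, 31.4 and 35.2 CPM in WT and 139.6, 144 and 149 CPM in db/db, a log2 fold change of 2.08 ± 0.18 (edgeR adjusted p = 1.52e-05). Clcn5, a chloride and proton exchanger of endosomes, stood at 31.4, 28.4 and 35.2 CPM in WT and 91.1, 86.1 and 77.5 CPM in db/db, a log2 fold change of 1.42 ± 0.09 (edgeR adjusted p = 9.04e-08). Cacna1b, the N-type calcium channel, stood at 35.2, 31.9 and 40.3 CPM in WT and 15.4, 16.2 and 17.5 CPM in db/db, a log2 fold change of -1.13 ± 0.11 (edgeR adjusted p = 4.81e-06). Scn3a and Clcn5 were higher and Cacna1b lower in every db/db library. Nalcn, a sodium leak channel, fell from 80.3 ± 4.18 to 47.7 ± 3.63 CPM. Trpc4, a cation channel, rose from 14.5 ± 1.72 to 32.5 ± 3.51 CPM, and Pkd1, which encodes polycystin 1, a membrane protein also found on primary cilia, fell from 434 ± 20.2 to 311 ± 10.4 CPM. The split of potassium channel calls turned to 12 higher and 21 lower with library totals.

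Receptors, enzymes of cyclic nucleotides and calcium pumps changed in both directions, and the incretin receptors fell. Of the 50 genes of G protein-coupled receptors known from islets 13 rose and 13 fell (median log2 fold change -0.07), and 8 were higher without WT 2. These calls made up 52.0% of the list, against 41.7% of all tested genes. Glp1r, the receptor of the incretin GLP-1, stood at 370.4, 403 and 322 CPM in WT and 127, 157 and 149 CPM in db/db, a log2 fold change of -1.34 ± 0.13 (edgeR adjusted p = 6.73e-06). Gipr, the receptor of the other incretin, fell from 173 ± 5.44 to 42.8 ± 2.95 CPM. Adora1, an adenosine receptor, stood at 39.3, 28.3 and 32.8 CPM in WT and 8.64, 10.03 and 8.41 CPM in db/db, a log2 fold change of -1.89 ± 0.14 (edgeR adjusted p = 2.87e-07). Ffar2, a receptor of short-chain fatty acids, stood at 18.4, 20.9 and 18.2 CPM in WT and 36.6, 41.2 and 44.8 CPM in db/db, a log2 fold change of 1.09 ± 0.13 (edgeR adjusted p = 1.47e-05). Both incretin receptors and Adora1 were below WT in every db/db library and Ffar2 above. Vipr2, a receptor for VIP and PACAP, rose from 1.53 ± 0.415 to 7.67 ± 1.97 CPM, and Ptger4, a prostaglandin E receptor, from 4.99 ± 0.728 to 17 ± 3.28 CPM. 10 of 39 genes for adenylyl cyclases, phosphodiesterases and cyclic AMP effectors were higher and 10 lower, or 51.3% of the list against 41.7% of all tested genes. The median log2 fold change was 0.08, and 6 were lower without db/db 1. Pde5a, which breaks down cyclic GMP, stood at 996, 1001 and 936 CPM in WT and 395, 535 and 453 CPM in db/db, a log2 fold change of -1.08 ± 0.12 (edgeR adjusted p = 1.31e-05). Pde4d, which breaks down cyclic AMP, rose from 21.3 ± 1.9 to 48.8 ± 6.46 CPM, and Gnas, the stimulatory G protein subunit, from 966 ± 30.04 to 1529 ± 52.7 CPM. Of the 31 genes for calcium handling by ER and mitochondria 9 rose and 7 fell (median log2 fold change -0.02). Atp2a2, the gene of the SERCA2 pump that fills the ER with calcium, stood at 1896, 1968 and 1979 CPM in WT and 845, 972 and 1019 CPM in db/db, a log2 fold change of -1.04 ± 0.09 (edgeR adjusted p = 1.16e-06). Atp2c1, the Golgi calcium pump, fell from 305 ± 20.3 to 178 ± 12.5 CPM, while Orai2, a store-operated channel subunit, rose from 11.4 ± 0.658 to 29.9 ± 5.0 CPM and Calb1, a calcium-binding protein, from 29.2 ± 6.19 to 57.5 ± 5.15 CPM.

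Among genes for contacts between cells, the synaptic list had more fallen than risen members. 10 of 49 synaptic adhesion and scaffold genes were higher and 22 lower, with a median log2 fold change of -0.11, and 6 were higher without WT 3. Rims3, an active-zone protein, stood at 275, 306 and 316 CPM in WT and 64.6, 91.9 and 76.7 CPM in db/db, a log2 fold change of -1.94 ± 0.11 (edgeR adjusted p = 4.10e-08). Dlgap1, a scaffold protein, stood at 36.9, 50.5 and 43.1 CPM in WT and 6.04, 7.18 and 8.51 CPM in db/db, a log2 fold change of -2.57 ± 0.16 (edgeR adjusted p = 5.41e-08). Ptprn, which encodes the granule protein IA-2, stood at 291, 335 and 329 CPM in WT and 841, 796 and 929.6 CPM in db/db, a log2 fold change of 1.43 ± 0.09 (edgeR adjusted p = 8.73e-08). Rims3 and Dlgap1 were lower and Ptprn higher in all db/db libraries. Cntnap2, a neurexin relative, fell from 196 ± 10.1 to 81.6 ± 15 CPM. Of the 58 axon guidance genes 12 rose and 11 fell (median log2 fold change 0.14). The 39.7% called in this list lay near the 41.7% of all tested genes. Robo2, a receptor for Slit proteins that takes part in islet architecture, stood at 362, 356 and 411 CPM in WT and 71.9, 112 and 84.4 CPM in db/db, a log2 fold change of -2.07 ± 0.14 (edgeR adjusted p = 3.43e-07). Robo1 fell from 93.6 ± 8.73 to 43.4 ± 0.499 CPM. Sema3c, a secreted semaphorin, stood at 6.67, 6.68 and 6.2 CPM in WT and 47.5, 32.7 and 48 CPM in db/db, a log2 fold change of 2.71 ± 0.15 (edgeR adjusted p = 1.86e-08). The ligand Ntn1 rose from 2.7 ± 1.04 to 30.9 ± 9.26 CPM. 14 of 40 genes for gap junctions, tight junctions and cadherins were higher and 10 lower, with a median log2 fold change of 0.28. Gjd2, which encodes connexin 36, the gap junction protein that couples beta cells, stood at 375, 404 and 356 CPM in WT and 121.99, 157.9 and 135 CPM in db/db, a log2 fold change of -1.45 ± 0.10 (edgeR adjusted p = 8.73e-08). Cdh8, a cadherin not called with the acinar covariate, fell from 90.8 ± 7.55 to 54.4 ± 8.59 CPM, and Cldn3, a tight junction gene, rose from 17.3 ± 1.97 to 41.3 ± 4.87 CPM.

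Among growth factor pathways, the FGF and TGF-beta lists had more risen than fallen members and the WNT list more fallen members. 16 of 35 genes of FGF, EGF and neuregulin signalling were higher and 2 lower, with a median log2 fold change of 0.87. Fgf1, a ligand, stood at 10.8, 11.6 and 10.4 CPM in WT and 35.3, 31.2 and 29.5 CPM in db/db, a log2 fold change of 1.55 ± 0.12 (edgeR adjusted p = 3.46e-07). Spred3, a feedback inhibitor of the pathway, stood at 12.9, 9.93 and 10.5 CPM in WT and 36, 29.5 and 40.3 CPM in db/db, a log2 fold change of 1.66 ± 0.15 (edgeR adjusted p = 1.95e-06). Klb, a co-receptor of endocrine FGFs, fell from 14.8 ± 3.98 to 8.39 ± 1.85 CPM, and was not called with Y-linked counts as a covariate. Of the 50 TGF-beta and BMP pathway genes 18 rose and 5 fell (median log2 fold change 0.27). Inhbb, which encodes the beta B chain of activin, stood at 2.54, 3.43 and 3.76 CPM in WT and 36.1, 34.1 and 31.6 CPM in db/db, a log2 fold change of 3.39 ± 0.20 (edgeR adjusted p = 3.97e-08). Bambi, a decoy receptor, stood at 47.4, 53.5 and 56.4 CPM in WT and 202, 159 and 198 CPM in db/db, a log2 fold change of 1.83 ± 0.10 (edgeR adjusted p = 1.46e-08). Acvr1c, the activin receptor ALK7, stood at 21.4, 17.9 and 21.9 CPM in WT and 4.8, 10.7 and 7.22 CPM in db/db, a log2 fold change of -1.42 ± 0.20 (edgeR adjusted p = 1.11e-04). The activin ligand gene thus rose in every db/db library while this receptor fell. Tgfbr1, a TGF-beta receptor, fell from 127 ± 10.8 to 74.7 ± 1.25 CPM. Of the 34 WNT pathway genes 5 rose and 10 fell (median log2 fold change -0.15). Calls made up 46.0% of the TGF-beta list and 44.1% of the WNT list, near the 41.7% of all tested genes. Rspo4, an agonist of WNT signals, rose from 5.8 ± 0.924 to 27.7 ± 4.34 CPM, whereas Sfrp5, a secreted inhibitor, fell from 47.7 ± 5.3 to 13.4 ± 2.33 CPM. 11 of 46 insulin and IGF pathway genes were higher and 13 lower, with a median log2 fold change of -0.07. Irs1, an adaptor of the insulin receptor, fell from 59.3 ± 6.49 to 33 ± 5.02 CPM, and Igfbp3, an IGF-binding protein, rose from 62.2 ± 8.7 to 186 ± 18.1 CPM. Of the 48 JAK-STAT and cytokine receptor genes 16 rose and 13 fell (median log2 fold change 0.01). Lifr, the receptor of leukaemia inhibitory factor, stood at 322, 321 and 332 CPM in WT and 119.1, 95 and 100.5 CPM in db/db, a log2 fold change of -1.63 ± 0.09 (edgeR adjusted p = 1.35e-08). Tnfrsf11b, which encodes the decoy receptor osteoprotegerin, stood at 2.38, 4.24 and 2.84 CPM in WT and 45, 32.5 and 37.4 CPM in db/db, a log2 fold change of 3.6 ± 0.21 (edgeR adjusted p = 6.01e-08). With acinar markers as a covariate 9 higher and 1 lower of the FGF and EGF genes and 7 higher and 2 lower of the TGF-beta genes were called, and the FGF and TGF-beta lists had their highest level in db/db 1, which also had the highest stellate cell markers.

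Complement and chemokine genes had more risen than fallen members. Of the 47 genes of chemokines, cytokines and complement 23 rose and 4 fell (median log2 fold change 0.85). Of the complement genes 9 of 18 rose. Ccl28, an epithelial chemokine, stood at 2.22, 2.35 and 2.84 CPM in WT and 26.1, 23 and 29.6 CPM in db/db, a log2 fold change of 3.41 ± 0.17 (edgeR adjusted p = 7.90e-09). Lcn2, an iron-scavenging acute phase protein, stood at 1.11, 0.451 and 0.508 CPM in WT and 14.1, 6.19 and 10.8 CPM in db/db, and was called higher, but its WT values rest on few counts a library, so no fold is given. Cd59a, an inhibitor of the complement attack complex, rose from 18.1 ± 0.477 to 37 ± 2.26 CPM, and Csf1, the macrophage growth factor, fell from 16.3 ± 0.769 to 8.95 ± 1.81 CPM, though not called with the Y-linked or the acinar covariate. The median level of this list was 0.81, 0.36 and 0.28 in db/db 1 to 3 and at most -0.15 in WT, and with acinar markers as a covariate 7 higher and 3 lower of its genes were called. 7 of 59 interferon-stimulated and MHC class I genes were higher and 13 lower, with a median log2 fold change of -0.13, and the 33.9% called lay under the 41.7% of all tested genes. Stat2, a mediator of interferon signals, stood at 22.2, 24.7 and 26.1 CPM in WT and 10.2, 12.5 and 12.7 CPM in db/db, a log2 fold change of -1.04 ± 0.14 (edgeR adjusted p = 6.95e-05). Trim21, an antibody receptor induced by interferon, fell from 13.6 ± 0.668 to 7.13 ± 0.364 CPM, and Parp14 from 40.7 ± 2.38 to 23.8 ± 5.3 CPM. With Y-linked counts as a covariate 8 higher and 3 lower of the interferon and MHC genes were called, and Parp14 was not called. The macrophage marker sums given above were higher in db/db, and their part in the chemokine and complement counts was not tested.

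Genes that beta cells normally keep silent, called disallowed, rose in part. 10 of 27 disallowed genes were higher and 0 lower, with a median log2 fold change of 1.09, and no member was lower at an unadjusted p under 0.05, with DESeq2 or with limma-voom. Oat, an aminotransferase of ornithine, stood at 15.2, 14 and 12.1 CPM in WT and 53.4, 38.3 and 52 CPM in db/db, a log2 fold change of 1.8 ± 0.15 (edgeR adjusted p = 1.21e-06). Yap1, the effector of the Hippo pathway, rose from 8.74 ± 1.49 to 17 ± 5.13 CPM, and Parp3 from 1.27 ± 0.451 to 5.35 ± 2.63 CPM, neither called with the acinar covariate. Other pancreatic cells express these genes, and the list had a median level of 1.22 in db/db 1, 0.09 in db/db 2 and 0.15 in db/db 3, against -0.58 to -0.14 in WT. With acinar markers as a covariate 1 member was higher. With WT 3 left out, 5 members were higher. The library db/db 1 also had the highest median level of the acinar, stellate and duct cell markers, and their part in the rise was not tested.

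Outside the lists and markers, the 20 highest fold changes among genes without overlap were of genes at low levels in WT. Genes given in an earlier report on the series were left out of these 20 and of the 20 lowest. Vstm2a, a secreted immunoglobulin-domain protein, stood at 0.635, 0.181 and 0.305 CPM in WT and 25.5, 11.3 and 16.1 CPM in db/db, and was called higher. Ankrd34b stood at 1.19, 2.53 and 2.34 CPM in WT and 63.9, 48.7 and 48.9 CPM in db/db, a log2 fold change of 4.75 ± 0.22 (edgeR adjusted p = 7.67e-09). Smoc1, a secreted calcium-binding matrix protein, stood at 3.41, 3.25 and 2.13 CPM in WT and 55.3, 44 and 51.9 CPM in db/db, a log2 fold change of 4.08 ± 0.17 (edgeR adjusted p = 1.73e-09). All 3 genes were higher in every db/db library, and no fold is given for Vstm2a, since its WT values include libraries at or under 3 counts. Cthrc1, a secreted collagen repeat protein, stood at 0.714, 0.722 and 1.12 CPM in WT and 15.1, 13.4 and 21 CPM in db/db, a log2 fold change of 4.28 ± 0.28 (edgeR adjusted p = 8.18e-08). Aass, the first enzyme of lysine breakdown, stood at 2.22, 2.8 and 0.711 CPM in WT and 25, 22.3 and 26.1 CPM in db/db, a log2 fold change of 3.64 ± 0.28 (edgeR adjusted p = 7.60e-07). Gna14, a G protein subunit of the Gq class, stood at 1.51, 2.08 and 0.813 CPM in WT and 27.7, 13.4 and 15 CPM in db/db, a log2 fold change of 3.64 ± 0.34 (edgeR adjusted p = 4.40e-06). The groups were again apart in all 3. Tmprss2, a transmembrane protease of epithelia, rose from 1.74 ± 0.625 to 23.6 ± 4.33 CPM, and Ildr2, a membrane protein of lipid-rich ER regions that was first described as a diabetes modifier, rose from 1.46 ± 0.464 to 19.1 ± 10.3 CPM. Gsdma, a gasdermin, rose from 0.716 ± 0.00582 to 13.9 ± 5.46 CPM.

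Some of the 20 highest genes varied widely within db/db. Spink1, a trypsin inhibitor of acinar cells, stood at 7.46, 5.51 and 6.3 CPM in WT and 391, 92.3 and 118 CPM in db/db, a log2 fold change of 4.95 ± 0.78 (edgeR adjusted p = 0.00317). Aqp1, a water channel, stood at 1.9, 2.89 and 1.22 CPM in WT and 89.5, 37.3 and 41.7 CPM in db/db, a log2 fold change of 4.78 ± 0.81 (edgeR adjusted p = 0.00409). Col5a1, a fibrillar collagen, stood at 2.14, 0.542 and 1.12 CPM in WT and 43.2, 8.67 and 41.5 CPM in db/db, a log2 fold change of 4.57 ± 0.85 (edgeR adjusted p = 0.00575). The library db/db 1, with the highest acinar and stellate cell markers, was the highest of the 3 for each of them. Vwf, the von Willebrand factor of endothelium, stood at 1.03, 0.451 and 2.03 CPM in WT and 38, 4.83 and 9.27 CPM in db/db, a log2 fold change of 3.89 ± 1.04 (edgeR adjusted p = 0.0237). Its call was lost when WT 1 or WT 2 was left out, at edgeR adjusted p = 0.08 and adjusted p = 0.075. Col16a1, another collagen, rose from 4.17 ± 0.314 to 54.3 ± 11.5 CPM, and Reg3b, a secreted lectin of stressed pancreas, from 2.26 ± 1.81 to 51.9 ± 12.5 CPM. With acinar markers as a covariate Aqp1, Col5a1 and Vwf were not called, and with the title letter as a covariate neither were Spink1, Aqp1, Col5a1 and Vwf.

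Among the 20 lowest, Gad1, which makes the transmitter GABA in beta cells, stood at 185, 184 and 231.3 CPM in WT and 14.4, 29.98 and 20.6 CPM in db/db, a log2 fold change of -3.2 ± 0.22 (edgeR adjusted p = 6.46e-06). Ppp1r1a, an inhibitor of protein phosphatase 1 tied to cyclic AMP signals, stood at 238, 254 and 238 CPM in WT and 22.8, 41.1 and 28 CPM in db/db, a log2 fold change of -2.99 ± 0.17 (edgeR adjusted p = 4.31e-07). Tmem215 stood at 300.01, 302.4 and 268 CPM in WT and 22.6, 54.6 and 48.2 CPM in db/db, a log2 fold change of -2.79 ± 0.28 (edgeR adjusted p = 1.66e-04). All 3 were above 100 CPM in every WT library and far lower in every db/db library. Maob, a mitochondrial monoamine oxidase, stood at 145.5, 141.7 and 127 CPM in WT and 20.03, 32.5 and 28.7 CPM in db/db, a log2 fold change of -2.35 ± 0.13 (edgeR adjusted p = 8.73e-08). Insrr, a relative of the insulin receptor that senses alkaline pH, stood at 480.3, 481 and 487 CPM in WT and 102, 147 and 99.9 CPM in db/db, a log2 fold change of -2.06 ± 0.15 (edgeR adjusted p = 1.21e-06). Vdr, the vitamin D receptor, stood at 274, 240.5 and 223 CPM in WT and 56, 66.1 and 64.1 CPM in db/db, a log2 fold change of -1.98 ± 0.09 (edgeR adjusted p = 4.33e-09). These also fell without overlap, and the SE of Vdr was the smallest of the 6. Npy, neuropeptide Y, fell from 16.5 ± 2.34 to 2.07 ± 1.14 CPM, and Carmil3, a regulator of actin filaments, from 115 ± 3.25 to 18.4 ± 3.52 CPM. Pcdh15, a protocadherin, fell from 58.9 ± 4.65 to 13.6 ± 0.668 CPM, and Fmn2, a formin, from 121 ± 25.4 to 31.4 ± 5.51 CPM. Actg1, a cytoplasmic actin with many processed copies in the genome, stood at 49.7, 67 and 52 CPM in WT and 20.9, 12.6 and 10.3 CPM in db/db, a log2 fold change of -1.96 ± 0.25 (edgeR adjusted p = 3.20e-04), and reads shared with those copies make this value uncertain. Plut, a non-coding RNA next to Pdx1, fell from 28.9 ± 3.24 to 7.67 ± 1.53 CPM, and since the strand setting of the counting is not given its reads cannot be told apart from those of an overlapping neighbour.

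**Figure D5:**
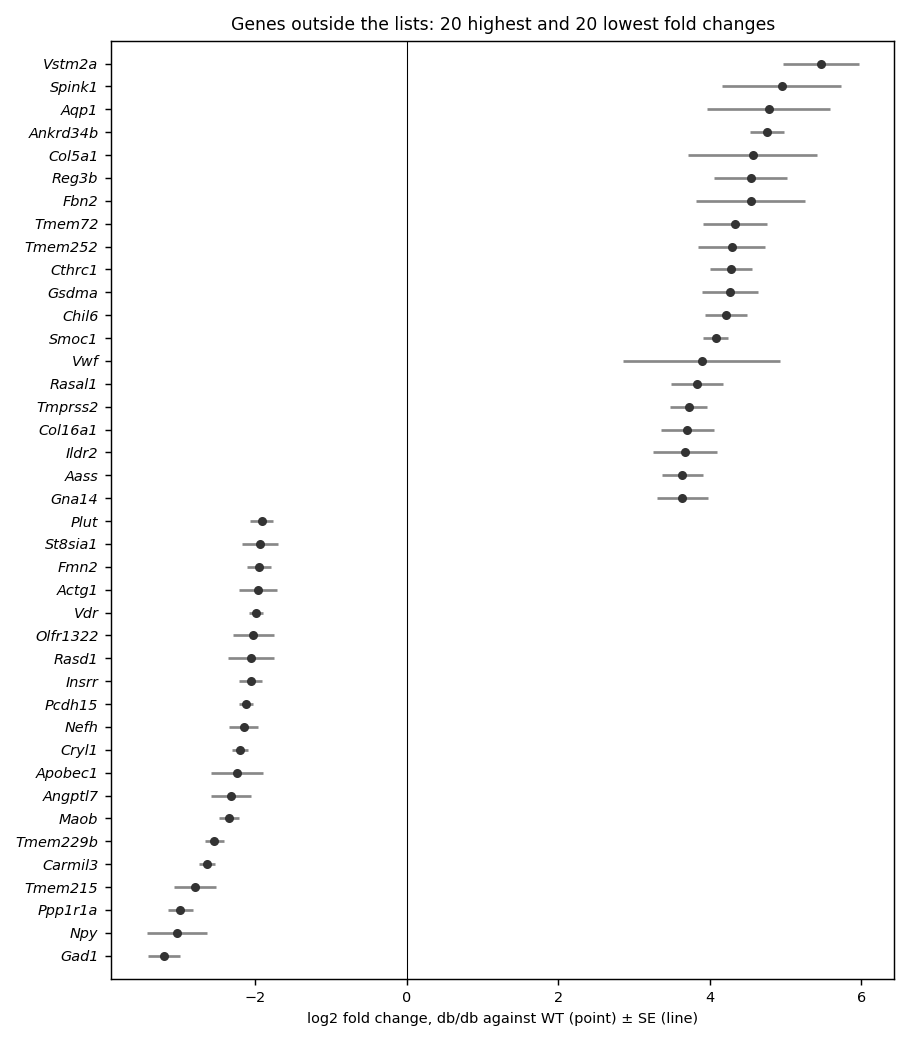
Log2 fold change of db/db against WT (points) with SE (lines) for the 20 highest and 20 lowest genes outside the lists, among called genes whose groups do not overlap and whose higher group has a mean of 10 CPM or more. Predicted genes, small RNAs, trypsinogens and genes given in an earlier report on the series were left out before the ranking. The rises start at 3.64 for Gna14, and those of Vstm2a, Fbn2 and Tmem72, which had WT libraries at or under 3 counts, depend on the prior count of the fit and give no order. The widest error is 1.04 for Vwf, and the falls run from -1.91 for Plut to -3.2 for Gad1.

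The largest differences in CPM concerned granule, peptide processing and digestive enzyme genes. Iapp, the gene of islet amyloid polypeptide, had the largest rise, by 19476 CPM. Scg2, a secretogranin of dense-core granules, stood at 6687, 7594 and 6487 CPM in WT and 13895, 16459 and 15255 CPM in db/db, a log2 fold change of 1.13 ± 0.11 (edgeR adjusted p = 3.38e-06). Pam, which amidates peptide hormones, stood at 1012, 953 and 952 CPM in WT and 3588, 3427 and 3666 CPM in db/db, a log2 fold change of 1.87 ± 0.09 (edgeR adjusted p = 4.33e-09). Pappa2, a protease that cleaves IGF-binding proteins, stood at 549, 401 and 458 CPM in WT and 2685, 3520.1 and 3475 CPM in db/db, a log2 fold change of 2.78 ± 0.14 (edgeR adjusted p = 9.43e-09). Each of the 3 was higher in all db/db libraries, and Pappa2 had the widest gap in proportion. Of the 10 largest rises 5 were of digestive enzyme genes, among them Ctrb1 at 1416, 828 and 835 CPM in WT and 9239.7, 2759 and 3190.2 CPM in db/db, a log2 fold change of 2.3 ± 0.59 (edgeR adjusted p = 0.0215). Its call was lost without WT 2 or WT 3, at edgeR adjusted p = 0.071 and adjusted p = 0.0729. Among the largest falls were Sphkap, an anchor of protein kinase A, from 1292 ± 65.8 to 423 ± 93.4 CPM, and Peg3, an imprinted zinc finger gene, from 4214 ± 52.4 to 2826 ± 415 CPM. Rn7sk, the small nuclear RNA that holds back transcription elongation, fell from 5177 ± 867 to 3281 ± 646 CPM, and the number of its copies and pseudogenes makes its count uncertain. Peg3, Rn7sk and Ctrb1 were not called with the acinar covariate. Ero1lb and Atp2a2, described above, were also among these 10, as the ER oxidase and the main ER calcium pump of the lists.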

How the data were processed

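RNA of pancreatic islets from WT, db/+ and db/db mice was sequenced after removal of ribosomal RNA, per the labels' protocols, which name Trizol for extraction. The values used are whole-number read counts per gene symbol, deposited by the authors without normalisation. Per the submitters' processing notes the tools were bcl2fastq 2.20.0.422 and TopHat2 2.0.14 with genome build mm10. The program that counted reads, its annotation and its strand setting were not given in the sources used here. Overlapping genes and near-identical copies may therefore share or lose reads. Of the table's columns 1 matched no sample and was not used. Replicate numbers only name libraries, in the order of their samples, and pair nothing.

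The 9 libraries held 8860024 to 11734886 counts over 52459 symbols, of which 29854 had a count and 16826 passed edgeR's filter on low counts. A gene at 0 in a library could have up to 3 counts there, which is 0.238 to 0.412 CPM, a limit that covers counting error only. Counts were scaled by TMM and fitted with edgeR 4.0.16 in R 4.3.3, by a robust quasi-likelihood model with 1 term a group over all 9 libraries and 6 residual degrees of freedom. The contrast was db/db minus WT, two-sided, with a threshold of 0.05 on Benjamini-Hochberg adjusted p over all tested genes. Values after ± are SE for log2 fold changes and SD (n = 3) for mean CPM. In simulated data with 200 changed genes among 16633, the model recovered 36% of those changed 1.5-fold and 82% of those changed 3-fold, and 7.09% of its calls were false. The simulated share of changed genes was far smaller than the 41.7% called in the data, so these rates do not carry over.

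The gene lists were chosen with earlier results of these data known, and so were the comparison and its alternatives. From each list described, up to 3 risen and up to 3 fallen members with the smallest adjusted p and at least 5 CPM in the higher group could be named. Outside the lists the 20 highest and 20 lowest fold changes among non-overlapping genes of at least 10 CPM could be named. Predicted genes, small RNAs, trypsinogens and genes given in an earlier report on the series were left out of this ranking. The 10 largest rises and falls in CPM could also be named. Subgroups by role, the promoter patterns shown and the correction for transcript length were chosen after seeing the data. Alternatives were DESeq2 1.42.0, limma-voom (limma 3.58.1), other scalings, filters, covariates and sets of libraries. The Y-linked covariate was the log2 summed CPM of Y-linked genes, the acinar covariate the mean log2 CPM of acinar markers, and the title letter the first letter of a sample's title. That letter varied only within WT, so its term was estimated from WT 3 against WT 1 and WT 2 alone. Promoters came from RefSeq. Some genes, and the full strain label, are not reported here. Figures were drawn with matplotlib 3.10.9.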

Additional observations from a re-analysis of the deposited data

How the results depend on the processing

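The fit with 16826 genes called 7018, with 3670 higher and 3348 lower. With acinar markers as a covariate 3343 genes were called, 1860 higher and 1483 lower, with the first letter of the sample title 4425, 2173 of them higher, and with a test against a 1.5-fold change 1809, 1194 higher and 615 lower. With library totals 2176 were higher and 5317 lower, a scaling that put the median log2 fold change of all genes at -0.22. With Y-linked counts as a covariate 1992 were lower, and 2126 where only the libraries with both Xist and Y-linked counts carried the contrast. The cause of the changes under covariates was not tested. Leaving out single libraries gave 5774 to 7004 called genes, 3092 to 3672 higher and 2682 to 3332 lower. DESeq2 called 6455, limma-voom 6894, and the correction for transcript length, added after seeing the data, 6957. No called gene was called in the opposite direction under any alternative run.

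Of the 208 genes the text names 199 were called, and 154 of these kept the call under every alternative. The calls of Copb1, Csf1, Ift20, Klb, Parp14 and Psmb9 were lost with the Y-linked covariate. Under the acinar covariate Aqp1, Bbs7, Bhlhe40, Cdh8, Col5a1, Csf1, Ctrb1, Fbn2, Mgll, Mks1, Parp3, Peg3, Psmb9, Rn7sk, Sirt2, Vwf and Yap1 were not called. The test against a 1.5-fold change left out 39 named genes.

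No paired analysis was possible because the labels give no replicate numbers that groups share. With 3 libraries a group small changes can be missed, at a rate that the simulated data do not give. Genes near 3 counts a library, such as Dnah10, Kcns3, Lcn2 and Vstm2a in WT, have no reliable fold change. Genotype cannot be told apart from the mixture of cells or from the sex makeup of the libraries where both moved together. The title letter moved with genotype as well, and only WT 3 shared the letter of the db/db libraries.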
